A study of Homo sapiens with 10 samples.

Results

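The interferon-stimulated genes (ISGs) described here are 37 genes that cells are known to switch on after exposure to interferon, chosen by name as rows of the deposited count tables. All 37 were found among the 28265 gene symbols of these tables, and 36 of them passed a filter of at least 5 counts in at least 2 libraries. OASL was the member that did not pass it, with a highest count of 4, in a day 38 library. The members were ISG15 with its ligase HERC5, the related HERC6 and the protease USP18, the RNA-binding IFIT1, IFIT2, IFIT3 and IFIT5, the membrane proteins IFITM1, IFITM2, IFITM3 and BST2, the RNA synthases and nuclease OAS1, OAS2, OAS3, OASL and ISG20, the GTPases MX1, MX2, GBP1 and GBP2, the nucleotide enzymes RSAD2 and CMPK2, the helicases IFIH1 and DDX60, the transcription factors STAT2, IRF1, IRF7 and IRF9, the pair PARP9 and DTX3L, and IFI6, IFI27, IFI35, IFI44, IFI44L and XAF1.

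Bulk RNA-seq was carried out on NKX2-1GFP+ cells sorted by flow cytometry from human thyroid organoids at days 16, 23, 31, 38 and 45, with 2 libraries per day and 10 in all. Every library came from a human embryonic stem cell line, ESIBIe003-A-6, which carries GFP at one NKX2-1 allele, doxycycline-inducible NKX2-1 and PAX8 transgenes had been added by lentivirus. Each replicate was made from pooled culture wells, by the study's methods, so that the p-values measure the spread between such pools of one line. Clones were selected after the transgenes were added, and how many clones the libraries came from is not stated in the sources used here. Total counts ran from 7247268 to 10333933 per library, and 3 counts, used here as a floor, stood for 0.307 to 0.436 counts per 1000000 (CPM).

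The labels name cAMP for days 16, 23 and 31, TSH with dexamethasone for day 38, and TSH with SB431542, an inhibitor of TGFβ receptor kinases, for day 45. The study's methods place day 16 before the cAMP analogue was given and start TSH and dexamethasone, a glucocorticoid, shortly before the day 31 harvest. The study describes SB431542 as an addition to the medium with TSH and dexamethasone, so the label of day 45 does not show that dexamethasone was withdrawn. No control of the same age in another medium was analysed here, so time in culture and medium cannot be told apart in any comparison of days. The study also sequenced cells kept on cAMP alone until days 38 and 45 as controls, which are not among the libraries used here. NKX2-1, the gene that carries the GFP used for sorting, was measured in every library. It ranged from 58.1 to 157 CPM, and PAX8, its partner in thyroid specification, from 477 to 728 CPM. These levels are not those of GFP, and the part of the transgenes in them was not tested. Both day 45 libraries held the lowest NKX2-1 levels, 58.1 and 66.7 CPM, against 154 and 133 CPM on day 38, and the part of this difference in the ISG levels of day 45 was not tested. TG, the thyroglobulin precursor of thyroid hormone, stood at 10.7 and 11.7 CPM on day 16 and at 7964 and 7525 CPM on day 45.

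Type I and type III interferons signal through their receptors to JAK1 and TYK2, which phosphorylate STAT2. STAT2 and IRF9 are part of ISGF3, a complex that binds the interferon-stimulated response element (ISRE) in the promoters of ISGs. Interferon gamma signals through JAK1 and JAK2, acts on the gamma-activated site (GAS) of promoters, and induces IRF1 and the GBP genes. Many ISGs are also expressed at a basal level in cells that have met no virus, and IFITM proteins are known to be present constitutively in stem cells.

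Promoter sequences show which members carry the letters of these elements close to their start. RefSeq promoters on GRCh38.p14, each from 250 bases before to 50 bases after a transcription start, were given for 29 members. No promoter was given for USP18, IFIT2, IFITM2, OAS2, OASL, MX2, GBP2 and IRF7. The ISRE was searched as GAAA, any 2 bases and GAAA again, and the GAS as TTCNNNGAA, both on either strand, and the letters of both elements may overlap. The ISRE letters were in 19 of the 29 member promoters (65.5%), against 1255 of 35116 promoters in the whole table (3.57%). The GAS letters were in 8 of 29 (27.6%), against 2689 promoters (7.66%). Both elements were matched in 4 member promoters, and in 3 of these the matches overlapped. The following windows upstream of the start are shown because their genes ran different courses over the days: the first 4 belong to members that rose, BST2 fell, and ISG15 and IFIT1 were not called. Each is written on the strand of its gene, with the ISRE matches in capitals.
IFITM3: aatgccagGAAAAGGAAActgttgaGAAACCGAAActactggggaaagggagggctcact
IFI6: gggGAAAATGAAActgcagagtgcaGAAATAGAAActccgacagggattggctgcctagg
IFI44L: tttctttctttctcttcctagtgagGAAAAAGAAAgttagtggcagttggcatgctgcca
GBP1: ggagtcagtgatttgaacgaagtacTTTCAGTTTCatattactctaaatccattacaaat
BST2: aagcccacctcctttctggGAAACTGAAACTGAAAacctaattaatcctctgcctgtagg
ISG15: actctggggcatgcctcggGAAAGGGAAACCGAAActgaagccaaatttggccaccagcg
IFIT1: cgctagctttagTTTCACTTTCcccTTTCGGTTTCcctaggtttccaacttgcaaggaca

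These windows lie at chr11:320861-320920 on the minus strand (IFITM3), chr1:27672251-27672310 on the minus strand (IFI6), chr1:78620350-78620409 on the plus strand (IFI44L) and chr1:89065301-89065360 on the minus strand (GBP1). The BST2 window is at chr19:17405720-17405779 on the minus strand, that of ISG15 at chr1:1013365-1013424 on the plus strand and that of IFIT1 at chr10:89392495-89392554 on the plus strand. Among members that differed between days by the test described next, 10 of 13 with a promoter held the ISRE letters, and among those that did not, 9 of 16 did. The GAS letters were in 4 of the 13 and in 4 of the 16. The 10 promoters with no ISRE match were those of HERC6, OAS1, RSAD2, CMPK2, STAT2, IRF1, IRF9, PARP9, IFI35 and XAF1, of which OAS1, IRF1, IRF9 and IFI35 held a GAS match.

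Of the 36 members tested, 18 differed between the days (edgeR quasi-likelihood test over all 5 days, Benjamini-Hochberg adjusted p under 0.05), beside 36.3% of all 21014 genes tested. The unadjusted p of that test was under 0.05 for 24 members, and the share of all genes at this threshold is not given here. Averaged over the 36 members, the level was 1.98 and 1.78 log2 CPM in the day 16 libraries and 2.19 and 2.20 on day 23. It was 2.43 and 2.55 log2 CPM on day 31, 2.89 and 2.81 on day 38, and 3.30 and 3.36 on day 45. By this mean each day's libraries lay above those of the day before, with no overlap. The median over the members did not take this course: it was 1.99 and 1.67 log2 CPM on day 16, 2.11 and 2.19 on day 23, 2.81 and 2.68 on day 31, 2.55 and 2.61 on day 38, and 3.24 and 3.13 on day 45, so that day 38 lay below day 31. Summed over the 37 members, the level was 419 and 428 CPM on day 16 and 1067 and 1161 CPM on day 45. IFITM genes made up 28.1 and 31% of this sum, which is not per length, on day 16, 67.7 and 62.3% on day 38, and 50.7 and 52.2% on day 45. In bulk samples, fewer cells of a type and less RNA per cell cannot be told apart, which holds for every level given here.

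The day of highest mean level was day 45 for 12 of the 36 tested members, day 38 for 9, day 31 for 8, day 16 for 5 and day 23 for 2. The members thus did not share one course. In the map of all members, IFITM1 and IFI44L were high from day 38. IFI44 was highest on day 38, and its day 45 libraries overlapped those of day 23. OAS1, OAS2, MX1, GBP1 and GBP2 were high on day 45. BST2, MX2 and HERC5 had their highest mean level on day 16. The HERC5 libraries of days 16 and 45 overlapped, and HERC5 was not called.

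**Figure D1:**
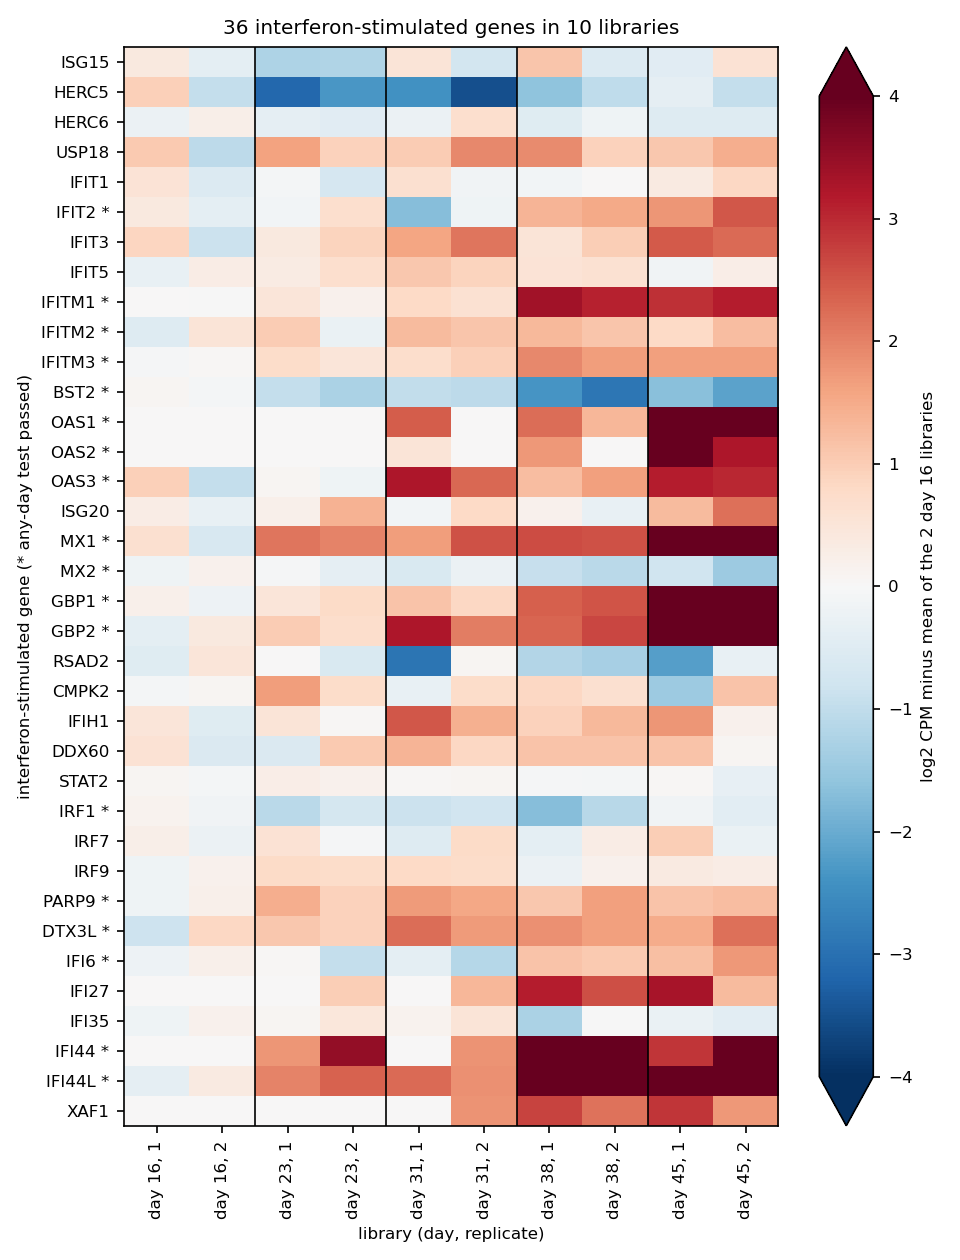
Level of the 36 tested members (rows, by role) in the 10 libraries (columns, by day and replicate), as log2 CPM minus the mean of the 2 day 16 libraries, with colours ending at -4 and 4. An asterisk marks the 18 members that passed the any-day test, and the last 4 columns hold most of the dark red cells.

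Between neighbouring days the calls were few. On day 23 against day 16, 5 members were called, 4 higher and 1 lower, or 5 of 36 beside 10.9% of all genes (5.6% higher and 5.33% lower). On day 31 against day 23, 2 members were higher and 0 lower in the edgeR test, beside 2.25% of all genes (1.58% higher and 0.666% lower). DESeq2 called 2 (3.15% of its genes). At an unadjusted p under 0.05 there were 7 members, and the share of all genes at that threshold is not given here. On day 38 against day 31, 6 members were higher and 1 lower, beside 15% of all genes (8.8% higher and 6.23% lower). On day 45 against day 38, 4 members were higher and 0 lower, beside 11.2% of all genes (4.85% higher and 6.35% lower). DESeq2 called 5 (14.1% of its genes). At an unadjusted p under 0.05 there were 7 members, again with no share of all genes given. The members' median log2 fold changes in these 4 comparisons were 0.33, 0.32, -0.10 and 0.17, against -0.02, 0.00, 0.00 and -0.02 for all genes. With members that had a day at 0 counts set to their bounds, the medians were 0.31, 0.18, -0.10 and 0.17. Above 0 were 23, 25, 17 and 20 of 36 members. Single libraries carried many of these calls. Fewer members were called for day 23 against day 16 without day 16 replicate 1 or day 23 replicate 1. The same held for day 31 against day 23 without either day 23 library or day 31 replicate 1. It also held for day 38 against day 31 without either day 38 library. So it did for day 45 against day 38 without day 38 replicate 1. In each of these fits fewer of all genes were called as well.

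Longer spans held more calls. On day 31 against day 16, 11 members were higher and 1 lower, beside 12.9% of all genes (7% higher and 5.87% lower). Of these 12 calls, 5 held when any 1 library was left out, and the count was 6 without day 31 replicate 1, beside 7.99% of all genes. On day 45 against day 16, 16 members were higher and 2 lower, beside 24.6% of all genes (12.9% higher and 11.7% lower). The median log2 fold change of the 36 members on day 45 against day 16 was 1.18, with 28 of 36 above 0, while the median of all genes was 0.00 and 49.3% of them were above 0. On day 31 against day 16 the median of the members was 0.91, and 0.40 with the 5 members that had a day at 0 counts set to their bounds, against -0.01 for all genes. These comparisons share their day 16 libraries. Of the 18 calls on day 45 against day 16, 10 held when any 1 of the 10 libraries was left out, and leaving out day 16 replicate 2 or day 45 replicate 2 lowered the count to 11, beside 21.6 and 19.2% of all genes.

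**Figure D2:**
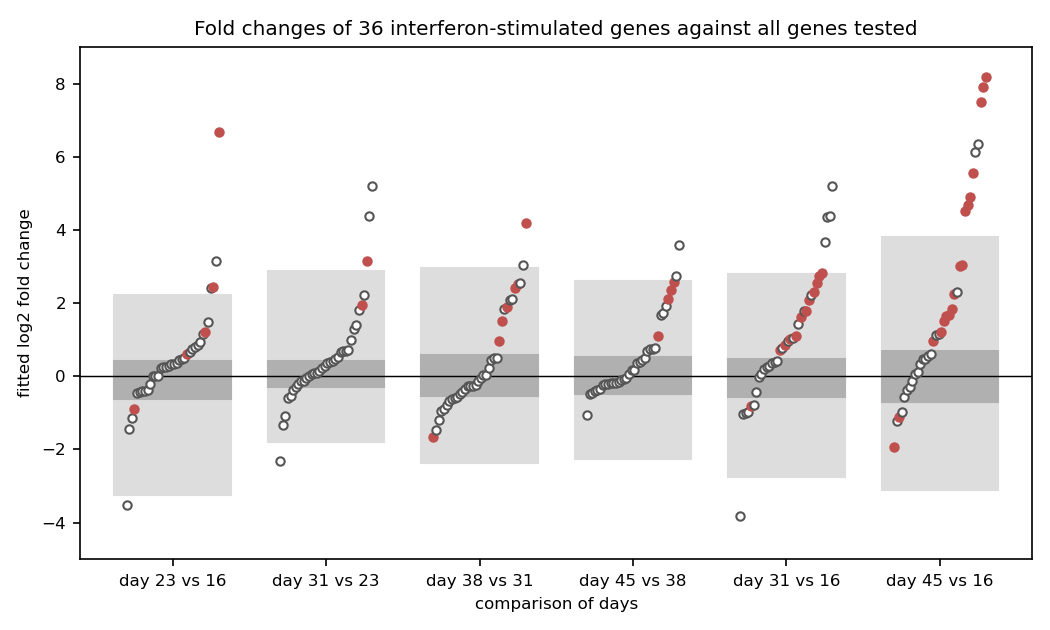
Fitted log2 fold change (y axis) of the 36 tested members, ordered by size within each of 6 comparisons (x axis), with filled red points for members called by edgeR. Dark and light grey bars span the middle 50 and 90% of all 21014 genes; on day 45 against day 16, 16 red points lie above 0 and 2 below.

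The IFITM genes were the most abundant members per length on day 45. IFITM1 (chr11:310041-315272, GRCh38, GENCODE 44), which hinders the fusion of viruses with host membranes, stood at 39.4 and 38.8 CPM on day 16, 54.3 and 44.1 on day 23, and 68.2 and 60.0 on day 31. It was at 405 and 335 CPM on day 38 and at 295 and 349 CPM on day 45. The last 4 libraries lay far above the first 6, and days 38 and 45 overlapped. From day 31 to day 38 IFITM1 rose by a log2 fold change of 2.53 (SE 0.15, edgeR adjusted p = 8.55e-15), or 5.77-fold in mean CPM. Against day 16 it was higher by 0.71 on day 31 and by 3.04 on day 45 on the log2 scale (SE 0.16 each, edgeR adjusted p = 0.00118 and 7.43e-17).

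IFITM3 (chr11:319676-329475), a restriction factor of endosomes, stood at 68.0 and 72.3 CPM on day 16, 118 and 97.3 on day 23, and 115 and 137 on day 31. On day 38 it was at 268 and 224 CPM and on day 45 at 219.9 and 221 CPM. Its libraries did not overlap between days 16 and 23 or between days 31 and 38. The log2 fold change was 0.62 on day 23 against day 16 (SE 0.15, edgeR adjusted p = 0.0047), and 0.97 on day 38 against day 31 (SE 0.15, edgeR adjusted p = 6.83e-06). The first of these was lost without day 23 replicate 1, at 0.47. IFITM2, the third gene of this cluster on chromosome 11, ranged from 10.5 and 21.7 CPM on day 16 over 30.9 and 12.5 on day 23 and 36.4 and 32.7 on day 31 to 37.8 and 33.1 on day 38 and 26.3 and 35.7 on day 45. It was higher on day 31 than on day 16 by a log2 fold change of 1.10 (SE 0.34, edgeR adjusted p = 0.0237), and the call was lost without day 16 replicate 1 or either day 31 library, with values from 0.68 to 1.71. Stretches of 50 bases repeated elsewhere in the primary genome made up 19.7% of IFITM1, 29.4% of IFITM2 and 30.0% of IFITM3, so that the split of reads between these paralogs is uncertain.

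BST2 (chr19:17402939-17405630), or tetherin, which holds budding virions at the cell surface, went the other way. It stood at 21.1 and 18.5 CPM on day 16, 9.98 and 8.003 on day 23, 9.83 and 9.43 on day 31, 3.67 and 2.45 on day 38, and 6.10 and 4.26 on day 45. Both day 16 libraries were above all others. BST2 fell by a log2 fold change of 1.94 between days 16 and 45 (SE 0.47, edgeR adjusted p = 0.00181). The fall of 1.65 from day 31 to day 38 (SE 0.48, edgeR adjusted p = 0.0152) was lost without day 31 replicate 1 or either day 38 library, with values from -1.97 to -1.39.

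Among the GTPases, GBP1 and GBP2 both had their highest level on day 45. GBP1 (chr1:89051882-89065360), which coats intracellular pathogens, stood at 3.68 and 2.71 CPM on day 16, 4.54 and 5.49 on day 23, 7.17 and 5.82 on day 31, 17.7 and 19.2 on day 38, and 85.7 and 104 on day 45. Each of the last steps separated the libraries fully. GBP1 rose by a log2 fold change of 1.5 between days 31 and 38 (SE 0.30, edgeR adjusted p = 0.000338) and by 2.36 from day 38 to day 45 (SE 0.28, edgeR adjusted p = 1.71e-07). Over the whole span from day 16 to day 45 its mean CPM rose 29.7-fold (log2 fold change 4.89, SE 0.34, edgeR adjusted p = 7.21e-14). In the GBP1 transcript, 15.5% of 50-base stretches are repeated elsewhere in the primary genome.

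GBP2 (chr1:89106132-89150456), of the same family, stood at 1.78 and 3.20 CPM on day 16, 5.10 and 4.001 on day 23, 24.7 and 10.7 on day 31, 13.1 and 16.4 on day 38, and 57.2 and 70.4 on day 45. The day 31 libraries were already above those of day 23 and overlapped those of day 38. The increase from day 23 to day 31 (log2 fold change 1.96, SE 0.37, edgeR adjusted p = 0.00145) was lost without day 23 replicate 2 or day 31 replicate 1, with values from 1.23 to 2.43. That from day 38 to day 45 was 2.11 (SE 0.35, edgeR adjusted p = 3.91e-05) and held whichever library was left out. GBP7 overlaps 8.6% of the GBP2 exons on the same strand.

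MX1 (chr21:41420020-41470071), an antiviral GTPase that is among the most used markers of type I interferon action, was at 0.634 and 0.123 CPM on day 16, 5 counts and 1 count. It stood at 2.22 and 1.94 CPM on day 23, 1.54 and 3.03 on day 31, 3.13 and 3.03 on day 38, and 13.9 and 22.7 on day 45. The day 45 libraries were well above the other 8, which all lay under 4 CPM. MX1 was higher on day 45 than on day 16 by a log2 fold change of 5.55 (SE 0.83, edgeR adjusted p = 2.47e-06). The step from day 38 to day 45, 2.57 (SE 0.67, edgeR adjusted p = 0.00822), was lost without either day 38 library or day 45 replicate 2, with values from 2.17 to 2.88. MX2, its nuclear paralog, stood at 30.4 and 39.2 CPM on day 16, 33.6 and 27.0 on day 23, 22.7 and 29.2 on day 31, 18.3 and 16.3 on day 38, and 19.7 and 12.6 on day 45. It was lower on day 45 than on day 16, by a log2 fold change of -1.11 (SE 0.30, edgeR adjusted p = 0.00442), and this call was lost without day 16 replicate 2 or day 45 replicate 2, with values from -1.47 to -0.82. MX1 and MX2, neighbours on chromosome 21, thus moved in opposite directions.

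The OAS enzymes, which make the short oligoadenylates that switch on RNase L, came from near or at 0. OAS1 had 0 counts in all 4 libraries of days 16 and 23, 1.02 and 0 CPM on day 31, 0.864 and 0.349 on day 38, and 3.78 and 4.59 on day 45. Against the floor of 3 counts per library, OAS1 was at least 11.2-fold higher on day 45 than on day 16 (edgeR adjusted p = 0.018). OAS2 likewise was at 0 on days 16 and 23 and at least 9.2-fold higher on day 45 (edgeR adjusted p = 0.0447). OAS3 stood at 2.03 and 0.369 CPM on day 16, 0.998 and 0.8003 on day 23, 10.8 and 5.47 on day 31, 2.48 and 3.38 on day 38, and 10.0 and 9.28 on day 45. The day 38 libraries lay below those of days 31 and 45, but neither difference was called (log2 fold change -1.47, edgeR adjusted p = 0.19, and 1.72, edgeR adjusted p = 0.135). The increase of OAS3 from day 23 to day 31 was 3.15 (SE 0.79, edgeR adjusted p = 0.0211). It was lost without either day 23 library or day 31 replicate 1, with values from 2.58 to 3.55. The calls of OAS1 and OAS2 were lost without any one of the day 16 and day 45 libraries, the call of OAS2 also without day 38 replicate 1, and that of OAS3 on day 45 against day 16 without day 16 replicate 2. With a library left out, the fitted log2 fold change of OAS3 ran from 2.24 to 4.64, while those of OAS1 (8.02 to 8.34) and OAS2 (7.12 to 8.4) are set by the prior count and are no bounds.

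PARP9 and DTX3L, which form a complex of an ADP-ribosyltransferase and a ubiquitin ligase and lie head to head on chromosome 3, were both higher by day 31. PARP9 stood at 8.88 and 11.6 CPM on day 16, 28.0 and 19.6 on day 23, 33.4 and 30.0 on day 31, 21.8 and 31.8 on day 38, and 22.5 and 24.4 on day 45. DTX3L stood at 6.97 and 22.4 CPM on day 16, 26.9 and 24.0 on day 23, 59.9 and 41.2 on day 31, 44.8 and 39.6 on day 38, and 35.4 and 58.4 on day 45. Both were lowest on day 16. The DTX3L libraries overlapped among the last 3 days, while both PARP9 libraries of day 31 lay above those of day 45. On day 31 against day 16 the log2 fold change was 1.63 for PARP9 (SE 0.31, edgeR adjusted p = 0.000215). For DTX3L it was 1.78 (SE 0.33, edgeR adjusted p = 0.00015), and 1.18 without day 16 replicate 1 or 2.86 without day 16 replicate 2. PARP9 was already higher on day 23, by 1.22 (SE 0.31, edgeR adjusted p = 0.00703), a call lost without day 16 replicate 1 or day 23 replicate 1, with values from 0.93 to 1.45. DTX3L was not called on day 23 against day 16 (log2 fold change 0.79, SE 0.33, edgeR adjusted p = 0.128). Exons of the 2 genes overlap on opposite strands over 1.56% of PARP9 and 2.41% of DTX3L, and the strand setting of the counting is not stated in the sources used here.

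IFI44L (chr1:78619902-78646145) and its neighbour IFI44 were the members of the remaining group with the largest ranges. IFI44L was at 0.507 and 0.985 CPM on day 16, 3.55 and 4.69 on day 23, 4.30 and 3.14 on day 31, 22.9 and 17.1 on day 38, and 16.7 and 18.4 on day 45. It rose in 2 steps, on day 23 (log2 fold change 2.44, SE 0.58, edgeR adjusted p = 0.00414) and on day 38 against day 31 (2.42, SE 0.48, edgeR adjusted p = 0.000373). The first step was lost without day 16 replicate 1, with the value between 2.06 and 2.98. IFI44 had 0 counts on day 16 and stood at 0.554 and 2.40 CPM on day 23, 0 and 0.582 on day 31, 5.29 and 5.47 on day 38, and 1.45 and 3.71 on day 45. It was at least 6.89-fold higher on day 45 than on day 16 (edgeR adjusted p = 0.0063).

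IFI6, a mitochondrial inhibitor of cell death, stood at 3.80 and 5.05 CPM on day 16, 4.54 and 2.17 on day 23, 3.28 and 1.86 on day 31, 10.0 and 9.32 on day 38, and 10.3 and 15.0 on day 45. The last 4 libraries were above the first 6. Its increase from day 31 to day 38, 1.90 (SE 0.59, edgeR adjusted p = 0.0226), was lost without day 31 replicate 2 or either day 38 library, with values from 1.55 to 2.37. LINC02574 overlaps 23.1% of the IFI6 exons on the same strand, so that the counts there are uncertain. IFI27 and XAF1 had no count on day 16 and at most 17 and 12 counts in any library, and neither was called. The whole IFI27 transcript (100% of 50-base stretches) is repeated on alternate contigs of the genome, so that its low counts are uncertain.

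Of the 4 transcription factors among the members, STAT2, IRF7 and IRF9 had no call. STAT2 stood at 72.2 and 64.3 CPM on day 16, 81.6 and 76.8 on day 23, 70.8 and 72.5 on day 31, 65.6 and 64.2 on day 38, and 70.7 and 54.6 on day 45. Days 16 and 45 overlapped, and the log2 fold change between them was -0.13 (95% interval -0.49 to 0.24, edgeR adjusted p = 0.684). IRF9 stood at 13.7 and 17.4 CPM on day 16, 26.3 and 25.95 on day 23, 26.7 and 25.95 on day 31, 13.2 and 17.2 on day 38, and 19.7 and 19 on day 45. Its libraries of days 23 and 31 were above all others, but its any-day test missed the threshold (edgeR adjusted p = 0.0587). IRF7, the factor that amplifies interferon production, ranged from 6.14 to 17.6 CPM. It stood at 10.3 and 7.51 CPM on day 16, 13.2 and 8.46 on day 23, 6.14 and 15.0 on day 31, 6.59 and 10.8 on day 38, and 17.6 and 7.21 on day 45, so that all days overlapped. Nearly all of its transcript (97.9% of 50-base stretches) is repeated on alternate contigs of the genome.

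IRF1, a target of interferon gamma and an activator of GBP genes, was the factor that changed. It stood at 60.5 and 49.0 CPM on day 16, 25.8 and 33.2 on day 23, 30.0 and 32.0 on day 31, 16.5 and 25.4 on day 38, and 49.4 and 40.5 on day 45. The level thus fell after day 16 and was high again on day 45, when it overlapped day 16. IRF1 was lower on day 23 than on day 16 by a log2 fold change of -0.89 (SE 0.25, edgeR adjusted p = 0.0154) and higher on day 45 than on day 38 by 1.10 (SE 0.25, edgeR adjusted p = 0.00282). The first call was lost without day 16 replicate 1 or day 23 replicate 1, with values from -1.08 to -0.72, and the second without day 38 replicate 1, with values from 0.82 to 1.44. The antisense gene IRF1-AS1 overlaps 22.9% of the IRF1 exons on the opposite strand.

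ISG15, a ubiquitin-like protein that is one of the first to rise after interferon, had few counts. It stood at 3.55 and 1.97 CPM on day 16, 0.998 and 1.03 on day 23, 3.89 and 1.51 on day 31, 5.94 and 1.747 on day 38, and 1.89 and 4.04 on day 45. The days overlapped apart from day 23, and the log2 fold change on day 45 against day 16 was 0.11 (95% interval -1.83 to 2.05, edgeR adjusted p = 0.962). This interval is wide enough to hold a change of several-fold in either direction. IFIT1, which binds viral RNA lacking a methylated cap, stood at 7.99 and 3.69 CPM on day 16, 5.10 and 3.32 on day 23, 8.60 and 4.89 on day 31, 5.08 and 5.47 on day 38, and 7.11 and 9.83 on day 45. Its log2 fold change on day 45 against day 16 was 0.54 (95% interval -0.65 to 1.73, edgeR adjusted p = 0.564). IFIT2, a partner of IFIT1, stood at 1.65 and 0.862 CPM on day 16, 1.11 and 2.06 on day 23, 0.205 and 1.047 on day 31, 3.46 and 3.84 on day 38, and 4.65 and 7.86 on day 45, and it passed the any-day test only (edgeR adjusted p = 0.0467).

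Besides these, IFIT3 and ISG20 were called on day 45 against day 16 and IFIH1 on day 31 against day 16, all without passing the any-day test. Their edgeR adjusted p-values were 0.0373, 0.045 and 0.0422, and each rested on single libraries. The call of IFIT3 was lost without day 16 replicate 2, day 38 replicate 2 or either day 45 library (1.58 to 3.59), that of ISG20 without either day 16 or day 38 library or day 45 replicate 2 (1.30 to 2.25), and that of IFIH1 without either day 16 or day 38 library or day 31 replicate 1 (1.43 to 2.68). The 15 members with no call of any kind were ISG15, HERC5, HERC6, USP18, IFIT1, IFIT5, RSAD2, CMPK2, DDX60, STAT2, IRF7, IRF9, IFI27, IFI35 and XAF1. The highest CPM of XAF1 in any library was 1.45 and that of STAT2 81.6, which are not per length. RSAD2, or viperin, had at most 18 counts and USP18 at most 23. USP18 shares 57.6% of its 50-base stretches with other places in the primary genome.

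Levels per kilobase were taken over all annotated exons of a gene merged (GENCODE 44), which can be much longer than the expressed transcript, so that the order of genes is approximate. On day 45 the order was led by IFITM1 at 193 CPM per kb, IFITM3 at 77.5 and IFITM2 at 19.3, followed by GBP1 at 15.6, IFI6 at 13.5 and GBP2 at 8.84. On day 16 it was led by IFITM3 at 24.7, IFITM1 at 23.5, BST2 at 17.95 and IFITM2 at 10.0 CPM per kb. GBP1 at 0.523 and GBP2 at 0.345 CPM per kb were then among the lower members.

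Over the 10 libraries the members' log2 CPM went together only in part. Of 630 pairs, 31 had a Pearson correlation over 0.8 and 75 one under -0.5, and the median was 0.17. IFITM3 and IFI44L (0.963) and MX1 and GBP1 (0.919) were among the closest pairs, and BST2 ran against IFI44L (-0.947). The libraries of a day share their day and medium, so these values are a description.

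Upstream of the members, most of the interferon genes themselves had few counts or none. Of 22 ligand genes listed, 10 passed the filter on low counts. IFNB1 had at most 8 counts in a library, IFNG at most 1 and IFNL1 at most 13. IFNA2 had 28 and 17 counts on day 16 and 0 in the other 8 libraries. IFNK, a type I interferon of keratinocytes, stood at 4.95 and 1.48 CPM on day 16, 3.33 and 1.49 on day 23, 1.54 and 0.698 on day 31, 5.29 and 2.56 on day 38, and 1.16 and 3.39 on day 45. Neighbouring days overlapped, apart from days 31 and 38, and it was not called (any-day edgeR adjusted p = 0.616). IFNE, an epithelial type I interferon, had the highest count of the ligands: it stood at 9.89 and 6.28 CPM on day 16, 30.8 and 24.8 on day 23, 35.6 and 28.3 on day 31, 4.86 and 5.94 on day 38, and 4.50 and 2.08 on day 45. IFNE was thus highest at days 23 and 31, with no overlap with the other days, and it fell by a log2 fold change of 2.56 between days 31 and 38 (SE 0.40, edgeR adjusted p = 9.02e-06). It had risen by 1.98 from day 16 to day 31 (SE 0.38, edgeR adjusted p = 0.000289). SFTPB, a surfactant gene of the lung, was also high on days 23 and 31 (165 and 149, then 499 and 502 CPM) and low on day 38 (6.59 and 8.62 CPM), and its part in the IFNE level was not tested.

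Receptors were present at every day. IFNAR1, of the type I receptor, stood at 69.0 and 76.4 CPM on day 16 and 132 and 125 on day 45, a log2 fold change of 0.83 (SE 0.16, edgeR adjusted p = 0.000107). IFNAR2, its other chain, ranged from 11.7 to 27.3 CPM, and its log2 fold change was 0.45 (95% interval -0.25 to 1.15, edgeR adjusted p = 0.385). IFNGR2, of the interferon gamma receptor, stood at 21.8 and 20.8 CPM on day 16, 56.0 and 62.0 on day 38 and 77.8 and 76.5 on day 45. It had the largest increase of the 6 receptor genes, 1.86 on day 45 against day 16 (SE 0.23, edgeR adjusted p = 5.24e-08), and IFNGR1 rose by 1.06 (SE 0.21, edgeR adjusted p = 0.000139). IFNLR1, of the type III receptor, was lower on day 45 by a log2 fold change of -1.06 (SE 0.36, edgeR adjusted p = 0.0292), which was lost without day 16 replicate 1 or day 45 replicate 1, at -1.32 to -0.84. In all, 3 of the 6 receptor genes were higher and 1 was lower on day 45 than on day 16, beside 12.9% higher and 11.7% lower of all genes.

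Of 12 listed genes of kinases, signal transducers and inhibitors, 5 were higher and 1 lower on day 45 than on day 16, where 12.9% of all genes were higher and 11.7% lower. JAK1, which serves all these receptors, stood at 58.1 and 55.04 CPM on day 16 and between 107 and 145 CPM in the other 8 libraries. Its log2 fold change was 1.17 on day 23 against day 16 (SE 0.15, edgeR adjusted p = 1.02e-06). JAK2 stood at 11.8 CPM in both libraries on day 16, 14.1 and 19.3 on day 23, 40.2 and 34.6 on day 31, and 44.6 and 31.1 on day 45. It was higher by 1.68 on day 45 than on day 16 (SE 0.29, edgeR adjusted p = 2.4e-05). TYK2 ranged from 31.1 to 70.1 CPM, with a log2 fold change of -0.11 on day 45 against day 16 (95% interval -0.60 to 0.38, edgeR adjusted p = 0.816). STAT3, which serves cytokines of the interleukin 6 family (2.03 on day 45 against day 16, SE 0.14, edgeR adjusted p = 9.26e-14), had the highest increase of the list in that comparison. SOCS3, an inhibitor of that pathway, was higher on day 31 than on day 16 by 1.80 (SE 0.21, edgeR adjusted p = 3.85e-08) and lower on day 45 than on day 38, by a log2 fold change of -1.68 (SE 0.21, edgeR adjusted p = 3.67e-07).

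A further 40 ISGs outside the 37, of which 38 were tested, gave 12 higher and 4 lower on day 45 against day 16, beside 12.9% higher and 11.7% lower of all genes. They gave 15 higher and 3 lower on day 31 against day 16, beside 7% and 5.87%, and 1 higher and 8 lower on day 38 against day 31, beside 8.8% and 6.23%. The difference of the last split from that of the members, of which 6 were higher and 1 lower, was not tested. Without TMM factors the members' split was 5 and 3, beside 16.9% of all genes called, and the share of higher calls among all genes went from 58.5 to 33.3%, with the median of all genes moved by -0.20 on the log2 scale in that comparison. SAMD9L, an antiviral inhibitor of translation, had 0 counts on day 16 and was at least 17.8-fold higher on day 45 (edgeR adjusted p = 9.11e-05). EPSTI1, named for epithelial stromal interaction, stood at 36.3 and 32.0 CPM on day 16 and at 7.70 and 4.15 on day 45, a log2 fold change of -2.54 (SE 0.39, edgeR adjusted p = 4.57e-06).

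Of 13 sensors and adaptors, of which 12 were tested, 3 were higher and 0 lower on day 45 against day 16 (all genes, 12.9% and 11.7%), and 0 were higher and 2 lower on day 38 against day 31 (all genes, 8.8% and 6.23%). TLR3, the endosomal receptor of double-stranded RNA, had 0 counts and 1 count on day 16 and 32 and 26 on day 45 (edgeR adjusted p = 0.0142), a call lost without day 16 replicate 1 or day 45 replicate 1, with fitted log2 fold changes from 4.76 to 8.02. DDX58, which encodes RIG-I, was at 37.9 and 46.7 CPM on day 31, 22.14 and 15.5 on day 38, and 45.7 and 38.01 on day 45. It fell by 1.16 on the log2 scale on day 38 (SE 0.25, edgeR adjusted p = 0.000976), and this call was lost without day 38 replicate 2, with values from -1.45 to -0.93.

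Among 15 genes of class I antigen presentation, of which 10 were tested, 2 were higher and 0 lower on day 45 than on day 16 (all genes, 12.9% and 11.7%). B2M, the light chain of class I molecules, stood at 127 and 155 CPM on day 16, 75.7 and 89.1 on day 23, and 218 and 230.2 on day 45. It was lower on day 23 than on day 16 by a log2 fold change of -0.78 (SE 0.15, edgeR adjusted p = 0.000401). ERAP2, which trims peptides for these molecules, was higher on day 23 by 2.43 (SE 0.44, edgeR adjusted p = 0.000158). The reference holds 93.7% of the B2M transcript a second time on alternate contigs, and whether those contigs were used in alignment is not stated in the sources used here.

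Of 15 genes known as targets of interferon gamma, 10 were tested, and 7 of these were higher and 0 lower on day 45 than on day 16, beside 12.9% higher and 11.7% lower of all genes. They were GBP3, CIITA, IRF8, ICAM1, WARS1, HLA-DRA and CD74, and the call of CIITA was lost without day 16 replicate 1 or day 45 replicate 1 (1.09 to 2.05). GBP5, CXCL9, CXCL10, CXCL11 and IDO1 were not tested, because they did not reach 5 counts in at least 2 libraries. The share of higher calls thus leaves out these targets with few or no counts. HLA-DRA, a chain of class II molecules, had 0 counts in all 6 libraries of days 16, 23 and 31, 2.48 and 0.815 CPM on day 38 and 6.68 and 10.4 CPM on day 45. It was at least 22.7-fold higher on day 45 than on day 16 (edgeR adjusted p = 0.000495), but its whole transcript (100% of 50-base stretches) is repeated on alternate contigs, so that its counts of 0 and this bound are uncertain. CD74, the invariant chain, stood at 48.7 and 38.5 CPM on day 16, 27.7 and 21.5 on day 31, and 133 and 139.7 on day 45. It was lower on day 31 than on day 16 (log2 fold change -0.82, SE 0.23, edgeR adjusted p = 0.013), a call lost without day 16 replicate 1 or day 31 replicate 2, with values from -1.02 to -0.64.

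Markers of other cells moved over the same days. The 10 leukocyte markers summed to 30.3 and 15.0 CPM on day 16, 7.20 and 11.0 on day 23, 19.7 and 18.2 on day 31, 17.2 and 8.62 on day 38, and 79.1 and 68.0 on day 45. Of the 7 tested, 3 were higher and 0 lower on day 45 than on day 16 (all genes, 12.9% and 11.7%), and 4 were higher on day 45 than on day 38 (all genes, 4.85%). Their most abundant gene was CD68, a lysosomal protein, at 36.4 and 35.9 CPM on day 45, and ITGAM had 162 and 88 counts against 2 and 1 on day 38. CSF1R stood at 0.216 and 0.582 CPM on day 38 and 5.66 and 7.65 on day 45, CD14 at 0 in both libraries and then 3.19 and 3.93, and LYZ at 3.02 and 2.56 and then 8.13 and 10.4. The defining marker PTPRC (CD45) had 4 and 0 counts on day 45, TYROBP 4 and 0, and CD3E 0 in every library. Fibroblast markers summed to 353 and 415 CPM on day 16, 308 and 383 on day 31, and 1278 and 1281 on day 38. Most of this was COL1A2, at 1151 and 1163 CPM on day 38. The list went both ways from day 31 to day 38, with 2 genes higher and 1 lower (all genes, 8.8% and 6.23%). The lower gene was LUM, at 96.2 and 101 CPM and then 46.2 and 37.7 CPM. The sums of cardiovascular markers were 17.6 and 16.6, 37.4 and 27.3, and 189 and 193 CPM on the same days. Airway markers summed to 15.3 and 10.6 CPM on day 16 and 51.4 and 41.2 on day 45, and goblet markers to 0.761 and 3.57 and to 103 and 56.3. Distal lung markers summed to 10.7 and 1.97 CPM on day 16, 168 and 153 on day 23, 507 and 507 on day 31, 8.53 and 11.1 on day 38, and 49.2 and 51.3 on day 45. Nearly all of this was SFTPB on days 23, 31 and 45, but not on days 16 and 38. In day 16 replicate 1 NAPSA lay above SFTPB. NAPSA stayed between 0.493 and 7.78 CPM over all libraries, and SFTPC had at most 1 count. Endothelial markers summed to 23.8 and 20.6 CPM on day 16, 32.7 and 43.6 on day 23, 54.6 and 51.1 on day 31, 19.9 and 24.3 on day 38, and 47.9 and 17.2 on day 45. Pluripotency markers summed to 49.96 and 28.5 CPM on day 16, 4.43 and 4.46 on day 23, 12.0 and 17.1 on day 31, 24.3 and 23.3 on day 38, and 5.37 and 6.66 on day 45. Most of the pluripotency sum was LIN28A on day 16 and SOX2 on day 38. LIN28A stood at 5.32 and 4.75 log2 CPM on day 16 and at -2.105 and -0.52 on day 38. SOX2 stood at 3.36 and 0.87 log2 CPM on day 16 and at 4.60 and 4.43 on day 38. The part of these other cells in the course of the ISGs was not tested.

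Genes of the medium and of handling were measured too. Of 8 genes of the glucocorticoid response, 5 were higher and 0 lower on day 38 than on day 31 (all genes, 8.8% and 6.23%), when IFITM1 rose, and 5 were higher and 2 lower on day 45 than on day 16 (all genes, 12.9% and 11.7%). FKBP5, a chaperone used as a marker of glucocorticoid action, stood at 34.1 and 39.8 CPM on day 31 and 142 and 157 on day 38. SGK1, a kinase of that response, rose by a log2 fold change of 2.41 between days 16 and 45 (SE 0.24, edgeR adjusted p = 4.62e-10). Of 10 genes of dissociation stress, which enzymes and sorting are known to raise, 2 were higher and 5 lower on day 45 than on day 38 (all genes, 4.85% and 6.35%), and FOS was at 1518 and 1401 CPM on day 38 and 382 and 338 on day 45. Of 6 proliferation genes, 0 were higher and 2 lower on day 45 than on day 38 (all genes lower, 6.35%) and likewise on day 45 than on day 16 (all genes lower, 11.7%). RN7SK, a small nuclear RNA, took 2.92 and 3.86% of counts on day 31, 8.17 and 6.76% on day 38, and 7.04 and 5.14% on day 45. The part of medium, handling and library make-up in the ISG levels was not tested.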

How the data were processed

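Counts per gene symbol were deposited by the authors as raw whole numbers, 1 table per library. By the study's methods and the submitters' processing notes, paired-end reads from a low-input total RNA kit were trimmed with Trimmomatic, aligned to GRCh38.p13 with HISAT2 and counted with HTSeq, with no normalization. Strand setting and use of alternate contigs are not given in the sources used here, and the libraries carry no stated molecular identifiers, so floors cover counting error only. Samples were grouped by the day in their labels. Blank rows in the files held no count.

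The members, gene lists and named genes were chosen with earlier results of these data known. From these counts, the 21014 genes that reached 5 counts in 2 or more libraries were fitted with 1 mean per day over all 10 libraries, with 5 residual degrees of freedom, in edgeR 4.0.16 (glmQLFit and glmQLFTest, TMM factors 0.896 to 1.07, R 4.3.3). P-values were adjusted by Benjamini-Hochberg over all these genes at 0.05. CPM are TMM-scaled, log2 CPM use a prior count of 2, standard errors are the log2 fold change over the root of F, and 95% intervals follow from them. Fold changes against a day at 0 are lower bounds with 3 counts per library. Values in every library are given for members that passed the any-day test with a mean of at least 5 CPM on a day (at most 16, by the range of their daily means), and for 8 members fixed by name; of the other lists, the largest changes and 8 fixed genes are named. Lists are described by counts and have no test of their own. The result of 1 listed gene is not reported here.

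The test was tried on counts simulated for day 38 against day 31 in 20196 genes: with 195 genes changed, edgeR called 104 genes, 8 of them falsely, and recovered 42.5% of those changed by 1 on the log2 scale and 54.6% of those changed by 2. In the data, 15% of all genes tested were called between these days, a far larger share than was changed in the simulation. Whether the recovery holds at such a share was not tested. Replicates of a day differed by more than sampling noise (chi-square per degree of freedom 8.38 to 13.7). Alternatives were DESeq2 1.42.0, other scalings and filters, a fit of the 4 libraries compared, a replicate block, a fold minimum and leaving out each library. Positions are from GENCODE 44, and repeats were found as exact 50-base matches with numba 0.67.0.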

Additional observations from a re-analysis of the deposited data

How the results depend on the processing

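Most calls of members near the threshold depended on single libraries. Leaving out each library in turn gave 2 to 6 called members for day 23 against day 16 (5 with all libraries), 0 to 3 for day 31 against day 23 (2), 4 to 8 for day 38 against day 31 (7), 2 to 5 for day 45 against day 38 (4), 6 to 13 for day 31 against day 16 (12), 11 to 18 for day 45 against day 16 (18) and 16 to 20 for the any-day test (18). With a day left at 1 library, that library was assumed to vary like the others. Calls over all genes also moved in these refits, and their lowest counts are given at the end of this section for most comparisons. In a fit of only the 4 libraries compared, 3 members were called for day 23 against day 16 (9.3% of all genes). That fit called 1 for day 31 against day 23 (1.93%) and 7 for day 45 against day 38 (16.5%). A minimum log2 fold change of 1 called 3 members for day 23 against day 16 (5.63% of all genes). The other counts stayed within 1.5 times under DESeq2, other scalings and other filters; the cause of the changes was not tested.

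Among the called genes and the uncalled genes fixed by name, which were the ones refitted without each library, directions at day 45 against day 16 reversed for 4, none of them called: ISG15 (-0.25 without day 16 replicate 2 and -0.54 without day 45 replicate 2, range -0.54 to 0.58), STAT2 (0.05 without day 45 replicate 2, range -0.32 to 0.05), IRF7 (-0.30 without day 45 replicate 1, range -0.30 to 0.98) and TYK2 (0.10 without day 16 replicate 1 and 0.19 without day 45 replicate 2, range -0.47 to 0.19). With the replicate number as a block, the counts in the same order were 7, 3, 7, 4, 13, 16 and 19, beside 12.9, 3.23, 16.5, 12.8, 14.5, 26 and 39.2% of all genes. The numbers share no source in the labels, and deviations of same-numbered libraries correlated at -0.03 to 0.02 over 10 pairs of days.

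Over all genes, a minimum log2 fold change of 1 left 1183 of 2296, 282 of 473, 1691 of 3160, 1202 of 2353, 1533 of 2705 and 3252 of 5175 calls for days 23 against 16, 31 against 23, 38 against 31, 45 against 38, 31 against 16 and 45 against 16. Leaving out 1 library lowered the counts of 2296, 473, 3160, 2353 and 2705 calls, with no fold minimum, to as few as 1350, 206, 1764, 1166 and 1661. Recovery in simulated data was not broken down by level, so the changes that 2 libraries a day can show in members with low counts are not given.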
